A study of Macaca fascicularis with 16 samples.

Results

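The subject here is the ordered change of gene expression along the aorta of normal young cynomolgus monkeys (Macaca fascicularis), from the ascending through the descending and suprarenal to the infrarenal segment. RNA sequencing counts of all 16 libraries of the series were used, 4 from each segment, at baseline with no treatment contrast. The segments were coded 1 to 4 in anatomical order and each gene was given a slope, the change in log2 expression per region step. The codes are an order and not a distance, so a step between neighbouring segments need not cover the same length of vessel. The labels name the tissue as aorta and do not say which wall layers were taken, and they do not say that libraries of a segment came from separate animals, so the p-values measure only the spread between these libraries. Values below are counts per 1e6 counts (CPM) scaled with TMM factors, given in the order of the library numbers 1 to 4 within a segment, and adjusted p-values are Benjamini-Hochberg values over all genes tested, from the quasi-likelihood test of edgeR. A gene was called where its adjusted p was under 0.05.

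The aortic wall is built by smooth muscle cells of several embryonic origins. Those of the ascending aorta come from neural crest and second heart field, and those of the descending and abdominal aorta from mesoderm of the trunk. Genes of the HOX clusters, transcription factors that specify position along the body axis, are expressed in an order that follows their place in the cluster, with low paralog groups reaching far to the front and high groups restricted to the rear. Adult smooth muscle cells and fibroblasts keep parts of this code.

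Library totals ran from 14.4 to 21.41 in units of 1e6 counts, and 1 count was worth 0.0478 to 0.0771 CPM. Smooth muscle markers were high in every library, with ACTA2 at 3810 CPM or more and MYH11 at 2952 CPM or more, so the tissue label was met in all 4 segments. Infrarenal replicate 1 stood apart, with a TMM factor of 0.736 against 0.977 to 1.08 in the others and a score of 77 ribosomal protein genes at 1.36 on the log2 scale against -0.363 to 0.281. Ascending replicate 4 and suprarenal replicate 3 lay apart from the other libraries of their segments on the second principal component, at -37.3 and -82.3, and held the highest summed endothelial markers of their segments, 3187 and 5295 CPM. The count of calls in each gene list is given with all libraries and without these 3.

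The slope test called 525 of 15926 genes, 226 higher and 299 lower towards the infrarenal end. That is 3.3% of the genes tested, 1.42% higher and 1.88% lower, and 1988 genes had an unadjusted p under 0.05. With the replicate number as a block the test called 778 genes (4.89%), 316 higher and 462 lower, among them 512 of the 525. When libraries were scaled by their totals alone it called 523, of which 171 were higher and 352 lower, so the share of higher genes was 32.7% in place of 43%. The slopes of the genes called higher had a median of 0.63 and reached 3.66 per step, and those of the genes called lower had a median of -0.57. The median slope of all genes tested was 0.02.

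Fewer calls were left without the infrarenal than without the ascending segment. With the ascending libraries left out the slope test called 227 genes (1.43%), 162 of them among the 525, and with the infrarenal libraries left out it called 20 genes (0.126%), 18 of them among the 525. Both of these fits have 12 libraries and 3 codes. A lost call need not mean a smaller slope. HOX genes of paralog groups 6 to 13 had a median slope of 1.97 without the infrarenal libraries and 0.9 without the ascending ones, with 4 and 7 genes called. These counts therefore do not show where along the vessel the changes lie. Single libraries also moved the count, to 813 without infrarenal replicate 1, to 304 without infrarenal replicate 2 and to 347 without infrarenal replicate 4. With the 3 libraries that stood apart all left out it was 1489 (9.35%), 760 higher (4.77%) and 729 lower (4.58%), with 496 of the 525 among them. Counts in the gene lists below stand beside these shares, and beside 3.3% with all libraries.

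The 3 differences between neighbouring segments were used to describe changes as gradual or local. A called gene was named stepwise where all 3 differences had the sign of the slope and each held at least 15% of their sum, one-step where 1 difference held at least 70% of the summed absolute differences, and mixed otherwise. By this description 191 of the 525 called genes were stepwise (90 higher, 101 lower), 62 were one-step (23 higher, 39 lower) and 272 were mixed. Over all genes tested 4.48% met the stepwise and 15.3% the one-step description, and since the shape was read from the values that gave the slope, nothing is read from these shares. The single differences were not tested. In 417 of the called genes (79.4%) all 3 differences had the sign of the slope, against 13.1% of all genes tested. A slope called on the same values favours such genes, so nothing is read from this contrast either.

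Among called genes the last step was most often the largest. The difference between the infrarenal and suprarenal segments was the largest of the 3 in 328 called genes (62.5%), that between the descending and ascending segments in 142 (27%) and that between the suprarenal and descending segments in 55 (10.5%). Over all genes tested the first step was the largest in 42.1%, the middle in 20.4% and the last in 37.6%. Of the 62 one-step genes 38 changed at the last step, 10 higher and 28 lower, 23 at the first step and 1 at the middle step. In 91 called genes all ascending libraries were separated from the other 12 without overlap, and in 159 all infrarenal libraries. In 15 the ascending and descending libraries together were separated from the suprarenal and infrarenal ones. These counts cover called genes only, and a call for slope favours such separation. The share over all genes tested is not given here, so nothing is read from them. The counts by shape depended on the shares chosen. With 25% and 80% in place of 15% and 70% there were 49 stepwise and 12 one-step genes, and by the lowest deviance of a straight line or a single break there were 355 and 170. Without the 3 libraries that stood apart there were 365 stepwise and 232 one-step genes, and the one-step count was 25 without infrarenal replicate 2 and 114 without suprarenal replicate 3.

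**Figure D1:**
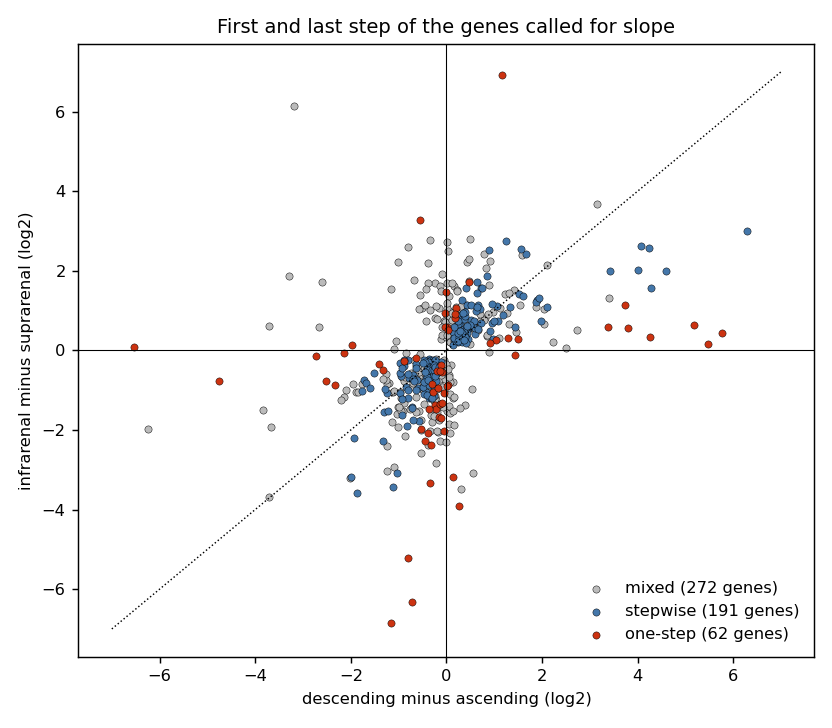
First step (descending minus ascending, x axis, log2) against last step (infrarenal minus suprarenal, y axis, log2) of the 525 genes called for slope, 1 point per gene coloured by shape, with a dotted line where both steps are equal. The 191 stepwise genes lie away from both axes in the upper right and lower left quadrants, and most of the 62 one-step genes lie along the horizontal or vertical zero line.

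HOXA10, a homeobox factor of the posterior body axis, was the only gene tested whose libraries lay in region order without any overlap (0.00628% of 15926 genes). It lay at 0.0627, 0.185, 0.0605 and 0.0604 CPM in the ascending libraries, 2.26, 1.26, 2.55 and 1.39 in the descending, 3.15, 13.3, 5.71 and 2.66 in the suprarenal and 40.03, 42.3, 42.5 and 24.8 in the infrarenal. Every library of a segment was above every library of the segment before it. The slope was 2.48 per step (SE 0.19, adjusted p = 3.33e-06), and the summed counts, scaled to library size, were 402-fold higher in the infrarenal than in the ascending segment.

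The 10 stepwise genes with the largest positive slopes, among those with a symbol and a mean log2 CPM of at least 1, were HOXC9, HOXA10, NKAIN2, HOXA9, KCNAB1, GREM1, PTCHD1, LRRC10B, HOXC4 and CXCL1L. HOXC9 had 1 count in the ascending aorta in all, so its ratio between the end segments, 601, has an exact 95% counting interval of 107 to 23791. HOXC9 lay at 0 to 0.0604 CPM in the ascending libraries, 0.111 to 0.672 in the descending, 0.886 to 8.13 in the suprarenal and 5.83 to 13.9 in the infrarenal, with an overlap only between the suprarenal and infrarenal libraries. The slope of HOXC9 was 2.51 per step (SE 0.28, adjusted p = 7.41e-05), and that of HOXA9 was 2.31 per step (SE 0.24, adjusted p = 4.13e-05).

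NKAIN2 encodes a membrane protein that interacts with the beta subunit of the sodium-potassium pump. It lay at 0, 0.123, 0.121 and 0.302 CPM in the ascending libraries, 3.3, 3.61, 1.82 and 0.665 in the descending, 5.57, 27.5, 3.11 and 1.89 in the suprarenal and 36.7, 46.9, 33.9 and 36.4 in the infrarenal. The descending and suprarenal libraries overlapped, and suprarenal replicate 2 lay far above the other 3 of its segment. The slope was 2.39 per step (SE 0.27, adjusted p = 8.49e-05).

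KCNAB1, the gene of a beta subunit of voltage-gated potassium channels, lay at 1, 1.54, 1.15 and 1.63 CPM in the ascending libraries, 7.03, 3.79, 2.24 and 3.93 in the descending, 1.92, 24.9, 13.2 and 5.08 in the suprarenal and 50.9, 106, 54.3 and 33 in the infrarenal. The ascending libraries were below all others and the infrarenal above all others, while suprarenal replicate 1 lay below every descending library. Its slope was 1.82 per step (SE 0.19, adjusted p = 4.13e-05), with neighbouring differences of 1.67, 1.41 and 2.43 on the log2 scale.

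GREM1 encodes a secreted antagonist of bone morphogenetic proteins. It lay at 0.564, 0.494, 1.88 and 2.96 CPM in the ascending libraries, 1.28, 0.361, 1.88 and 7.43 in the descending, 2.35, 4.74, 9.39 and 11 in the suprarenal and 22.8, 72, 41 and 21.5 in the infrarenal. All 4 infrarenal libraries were above the other 12, and the first 3 segments overlapped. The slope was 1.59 per step (SE 0.24, adjusted p = 0.000991), and 53.2% of its summed change fell on the last step.

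PTCHD1, a gene of a membrane protein with a patched domain, ran over 0.181 to 1.36 CPM in the ascending libraries, 0.887 to 4.16 in the descending, 2.48 to 8.75 in the suprarenal and 11 to 12.6 in the infrarenal, a slope of 1.36 per step (SE 0.18, adjusted p = 0.00027). Its infrarenal libraries lay close together and above all others. LRRC10B (1.31, adjusted p = 0.00189) and CXCL1L (1.19, adjusted p = 0.000976) had smaller slopes and neighbouring segments that overlapped throughout. CXCL1L belongs to a family of chemokine genes with similar sequences, so its counts may include reads of relatives.

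**Figure D2:**
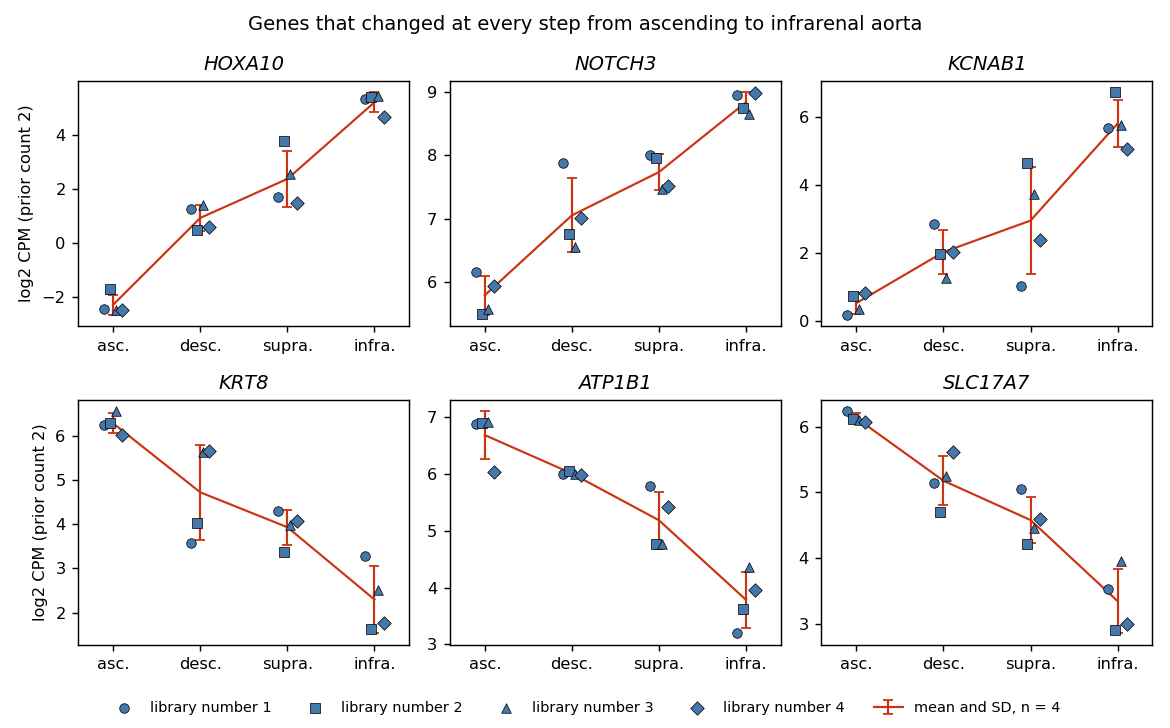
Expression of 6 stepwise genes in each library (log2 CPM with a prior count of 2, y axis) by segment (x axis), with the marker showing the library number and the red line the mean and SD of 4 libraries. HOXA10, NOTCH3 and KCNAB1 are higher and KRT8, ATP1B1 and SLC17A7 lower in every infrarenal library than in any ascending library, with the means of the descending and suprarenal segments in between.

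The 10 stepwise genes with the largest negative slopes under the same limits were SLC22A2, FBP2, KRT8, C3, BCO2, CACNA2D3, AMDHD1, ATP1B1, BMPR1B and SLC17A7. SLC17A7, known as a transporter that loads glutamate into vesicles, had the smallest p of the 10. It lay at 75.5, 68.8, 68.4 and 67.1 CPM in the ascending libraries, 35.1, 26, 37.9 and 48.7 in the descending, 32.8, 18.4, 22 and 24.1 in the suprarenal and 11.5, 7.34, 15.3 and 7.87 in the infrarenal. Ascending and infrarenal libraries were separated from their neighbours and the descending and suprarenal libraries overlapped. The slope was -0.88 per step (SE 0.08, adjusted p = 1.84e-05). The summed counts of SLC17A7, scaled to library size, were 6.79-fold lower in the infrarenal than in the ascending segment.

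ATP1B1 encodes the beta subunit of the sodium-potassium pump. It lay at 117, 119.9, 121 and 65.8 CPM in the ascending libraries, 64.3, 65.9, 64.1 and 63 in the descending, 55.2, 27.1, 27.2 and 42.6 in the suprarenal and 9.02, 12.2, 20.4 and 15.4 in the infrarenal. The 4 descending libraries spanned a narrow range, ascending replicate 4 lay at their level, and the suprarenal and infrarenal libraries each lay below all libraries of the segment before. The slope was -0.94 per step (SE 0.10, adjusted p = 4.13e-05).

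KRT8, a keratin of simple epithelia that smooth muscle can also express, lay at 75.8, 79.1, 95.4 and 64.9 CPM in the ascending libraries, 11.7, 16.3, 49.6 and 50.5 in the descending, 19.6, 10.2, 15.8 and 16.8 in the suprarenal and 9.64, 2.95, 5.57 and 3.28 in the infrarenal. The ascending libraries were above and the infrarenal libraries below all others. The slope was -1.26 per step (SE 0.14, adjusted p = 7.41e-05). KRT8 also stands on the list of mesothelial markers, whose 6 tested members all had negative slopes (median -0.95). Of the other members MSLN averaged 10.6 ± 20.1 CPM (SD, n = 4) in the ascending and 0.516 ± 0.5 CPM in the infrarenal segment, and UPK3B 7.22 ± 13.9 and 0.393 ± 0.285 CPM, and neither was called. Ascending replicate 4 had the highest mesothelial score of the 16 libraries, 3.54 on the log2 scale, and the lowest KRT8 level of its segment. Without the 3 libraries that stood apart the slope of KRT8 was -1.40, adjusted p = 0.00038, while the median of the list moved to -0.22 with 1 member called. The part of mesothelial cells in the fall of KRT8 was not tested beyond these values.

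FBP2, the muscle form of fructose-1,6-bisphosphatase, lay at 3.86 to 21.1 CPM in the ascending libraries, 2.22 to 11.2 in the descending, 0.287 to 5.01 in the suprarenal and 0.0602 to 0.34 in the infrarenal, a slope of -1.75 per step (SE 0.30, adjusted p = 0.00292). SLC22A2, an organic cation transporter, had a slope of -1.97 per step (SE 0.38, adjusted p = 0.00663) with ascending libraries spread over 1.33 to 91.9 CPM. The call of SLC22A2 was lost without ascending replicate 2 (adjusted p = 0.0652). BMPR1B, a type I receptor of bone morphogenetic proteins, fell by 0.88 per step (SE 0.18, adjusted p = 0.0094), over 13.4 to 71.1 CPM in the ascending libraries, 23.7 to 39.6 in the descending, 7.23 to 31.1 in the suprarenal and 2.23 to 14.7 in the infrarenal. BCO2, a carotenoid-cleaving enzyme (-1.19, adjusted p = 0.00473), CACNA2D3, an auxiliary calcium channel subunit (-1.05, adjusted p = 0.00409), and AMDHD1, an enzyme of histidine breakdown (-1.04, adjusted p = 0.0236), completed the group. The call of AMDHD1 was lost in 4 of the 16 fits without 1 library.

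C3, the central complement component, had a call that did not hold in 3 of the 16 fits without 1 library. It lay at 15.8, 17.3, 19.6 and 369 CPM in the ascending libraries, 26.2, 20.8, 23.6 and 53.3 in the descending, 4.95, 12.9, 21 and 25.9 in the suprarenal and 1.16, 9.21, 4.26 and 17.1 in the infrarenal. Ascending replicate 4 was far above all others. The slope was -1.22 per step (SE 0.29, adjusted p = 0.0236) with all libraries and -0.54 (adjusted p = 0.314) without that library. The call was also lost without infrarenal replicate 2, without infrarenal replicate 3, and with DESeq2 and limma voom.

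In all, 10 of the 90 called genes followed singly kept their call without the infrarenal libraries. These were HOXC9, HOXA10, HOXA9, HOXC4, HOXB7, KRT8, ATP1B1, SLC17A7, NOTCH3 and GUCY1A1, a subunit of soluble guanylate cyclase, the receptor for nitric oxide. GUCY1A1 lay at 15.2, 17.5, 15.4 and 26.4 CPM in the ascending libraries, 49.8, 30.7, 28.8 and 29.2 in the descending, 45.2, 44.3, 75.6 and 46.5 in the suprarenal and 29.8, 58.9, 36.7 and 80.2 in the infrarenal. All 12 libraries of the other segments were above the 4 ascending ones, and the difference at the last step was -0.04 on the log2 scale. With the slope fitted over all 4 segments it was called (0.50 per step (SE 0.11, adjusted p = 0.0172)), but the call was lost in 4 of the 16 fits without 1 library, with an adjusted p of 0.0701 at most.

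A set of genes changed mainly at the first step, between the ascending and the descending aorta. HAND1, a transcription factor of the developing heart, lay at 7.14, 7.41, 21 and 11.6 CPM in the ascending libraries, 0, 0.0602, 0.425 and 0 in the descending, 0.309, 0.813, 0.254 and 0 in the suprarenal and 0.463, 0.361, 0.524 and 0.17 in the infrarenal. Its lowest ascending library, at 7.14 CPM, lay far above the highest of the other 12, at 0.813 CPM, and its slope was -1.76 per step (SE 0.38, adjusted p = 0.0127). With the ascending libraries left out the slope of HAND1 had the opposite sign, 0.74, and was not called. The call of HAND1 was also lost with limma voom. ART4, an ADP-ribosyltransferase that carries a blood group, ran over 5.21 to 11.8 CPM in the ascending libraries, 0.849 to 2.77 in the descending, 1.65 to 2.44 in the suprarenal and 0.917 to 1.56 in the infrarenal, a slope of -0.92 per step (SE 0.15, adjusted p = 0.00235), with overlap only between the descending and suprarenal libraries.

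MYL2, the regulatory light chain of ventricular muscle, was called with a slope of -2.22 per step (SE 0.47, adjusted p = 0.0117), and this rested on ascending replicate 1. It lay at 99.4, 0.123, 0.605 and 0.483 CPM in the ascending libraries and at 1.58 CPM or less in the other 12. Without ascending replicate 1 the slope was -0.26 (adjusted p = 0.815). MYH6, the atrial myosin heavy chain, was also highest in that library at 5.83 CPM, and its adjusted p was 0.0548 without it. The other 7 tested cardiac markers were not called. Of all 9, 2 were called without the 3 libraries that stood apart, MYL2 and MYH6, both lower. That fit kept ascending replicate 1.

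HPGD, the dehydrogenase that inactivates prostaglandins, had 0 to 0.188 CPM in the ascending libraries and 0.72 to 3.6, 1.24 to 2.78 and 0.463 to 7.64 CPM in the following segments (1.29 per step (SE 0.30, adjusted p = 0.0242)). All 12 libraries beyond the ascending aorta lay above all 4 ascending ones. The call of HPGD was lost in 3 of the 16 fits without 1 library.

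PCNX2 was the single called gene whose change sat at the middle step. It lay at 0.313, 0.0617, 0.121 and 0.302 CPM in the ascending libraries, 0, 0.181, 0.121 and 0.61 in the descending, 0.124, 4.83, 0.317 and 4.37 in the suprarenal and 0.386, 7.4, 0.131 and 12.4 in the infrarenal. Only replicates 2 and 4 of the suprarenal and infrarenal segments were high, and replicates 1 and 3 lay within the range of the first 2 segments. The slope was 1.74 per step (SE 0.42, adjusted p = 0.0296), and the call was lost in 5 of the 16 fits without 1 library.

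The last step held the largest group. RBFOX1, a regulator of splicing in neurons and muscle, lay at 65.2, 63.9, 51.6 and 15 CPM in the ascending libraries, 20.2, 19.6, 47.3 and 31.2 in the descending, 18.2, 1.39, 9.2 and 4.31 in the suprarenal and 0, 0, 0.197 and 0.17 in the infrarenal. Its infrarenal libraries held 6 counts in all, against 3177 in the ascending segment. The slope was -2.17 per step (SE 0.40, adjusted p = 0.00445), with neighbouring differences of -0.73, -1.84 and -6.32. RBFOX1 fell at every step, with segment means of 48.9, 29.6, 8.27 and 0.0916 CPM, and the size of its last difference rests on those 6 counts. ERC2, a scaffold of the presynaptic active zone, ran over 4.22 to 10.1 CPM in the ascending libraries, 4.09 to 4.99 in the descending, 0.287 to 4.33 in the suprarenal and 0 to 0.113 in the infrarenal, a slope of -1.72 per step (SE 0.33, adjusted p = 0.00564). ERC2 also fell at every step, with neighbouring differences of -0.79, -1.19 and -5.21. It had 3 infrarenal counts, and the ratio of the ascending to the infrarenal segment was 167 with a counting interval of 56.8 to 812. C8H8orf34 was lower in the infrarenal segment as well (-1.40 per step (SE 0.36, adjusted p = 0.0387)), with the call lost in 10 of the 16 fits without 1 library.

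Among genes higher at the last step, EHD1, a protein of endocytic recycling, lay at 74, 74.9, 108 and 127 CPM in the ascending libraries, 127, 81.8, 133 and 93.9 in the descending, 98.5, 138, 142 and 104 in the suprarenal and 327, 190.1, 207 and 185 in the infrarenal. The infrarenal libraries were above all others and the first 3 segments overlapped. Its slope was 0.39 per step (SE 0.08, adjusted p = 0.00839), with neighbouring differences of 0.18, 0.14 and 0.92. TMTC1, a mannosyltransferase of the endoplasmic reticulum (0.36, adjusted p = 0.023), and PHKG1, the catalytic subunit of muscle phosphorylase kinase (0.77, adjusted p = 0.0216), were one-step at the last step too. Their infrarenal libraries overlapped the suprarenal ones, unlike those of EHD1. Their calls were lost in 3 and 5 of the 16 fits without 1 library, and that of TMTC1 also with library totals alone.

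A test of the quadratic and cubic terms asked which genes left a straight line. It called 5 genes (0.0314%), with 651 genes at an unadjusted p under 0.05. With the replicate block it called 10, with DESeq2 85, with limma voom 1, without the 3 libraries that stood apart 31, and without any single library 2 to 6. HOXA7 and an unnamed gene (GeneID 102137838) were among the 5 and were also called for slope. SNX31, ADGRL3 and POU3F2 were called for deviation alone. POU3F2, below the limit of mean expression used for naming genes, was named after its values were seen.

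SNX31, a sorting nexin, was expressed mid-vessel. It lay at 0.0627, 0, 0.0605 and 0.181 CPM in the ascending libraries, 17, 5.54, 12.6 and 2.83 in the descending, 28.6, 5.12, 3.55 and 11.8 in the suprarenal and 0.309, 0, 0.393 and 0.113 in the infrarenal. Every descending and suprarenal library was above every ascending and infrarenal library. The deviation had an adjusted p of 0.00443 and the slope was not called (0.32 per step (SE 1.05, adjusted p = 0.953)). ADGRL3, an adhesion receptor of the latrophilin family, lay at 2.13, 1.05, 2.24 and 6.64 CPM in the ascending libraries, 30.4, 42.2, 34.4 and 37.5 in the descending, 28.9, 36.8, 22.5 and 41.8 in the suprarenal and 15, 35.3, 25.6 and 23.7 in the infrarenal. All 12 later libraries were above the 4 ascending ones, and the differences at the later steps were -0.15 and -0.38 on the log2 scale. It had an adjusted p of 0.0331 for the deviation and 0.469 for the slope.

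**Figure D3:**
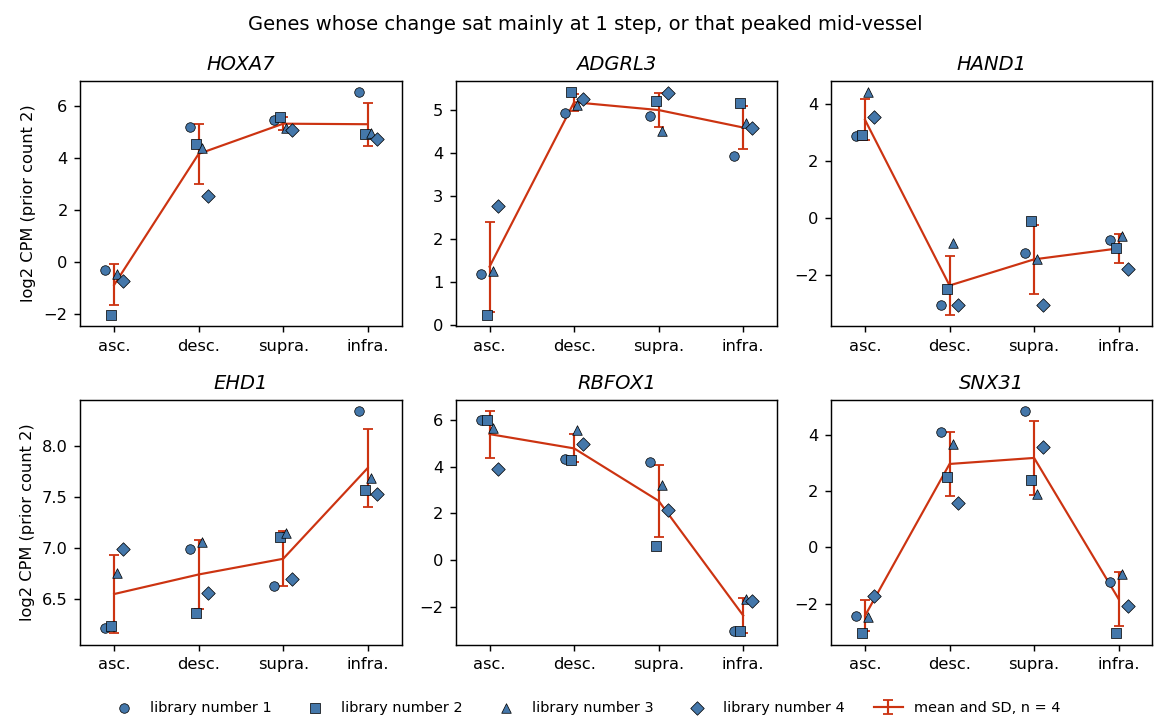
Expression of 6 genes in each library (log2 CPM with a prior count of 2, y axis) by segment (x axis), drawn as in the plot of stepwise genes. HOXA7, ADGRL3 and HAND1 differ mainly between the ascending segment and the rest, and EHD1 between the infrarenal segment and the rest. RBFOX1 falls at every step, most at the last on the log2 scale, and SNX31 is high in the descending and suprarenal segments.

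HOX genes of high paralog groups had the steepest median slope of the gene lists. Of 38 HOX genes with a symbol, 28 were tested, and 17 of them were called higher and 0 lower towards the infrarenal end. In paralog groups 1 to 5, 4 of 13 were called higher (median slope 0.20), and in groups 6 to 13, 13 of 15 (median 1.61). Across the 28 genes the slope and the paralog group number had a Pearson r of 0.778 and a Spearman rho of 0.797, given as a description, since the genes share libraries and neighbours in a cluster. Without the 3 libraries that stood apart, 5 were called higher and 2 lower in groups 1 to 5, and 13 higher in groups 6 to 13. HOXA4 was among those called lower (-0.73, adjusted p = 0.0182) and was not called with all libraries. The tested HOX cofactors of the MEIS, PBX and PKNOX families, 8 in all, had no called member with edgeR (1 at an unadjusted p under 0.05), 1 with DESeq2, 0 with limma voom and 0 with edgeR without the 3 libraries.

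**Figure D4:**
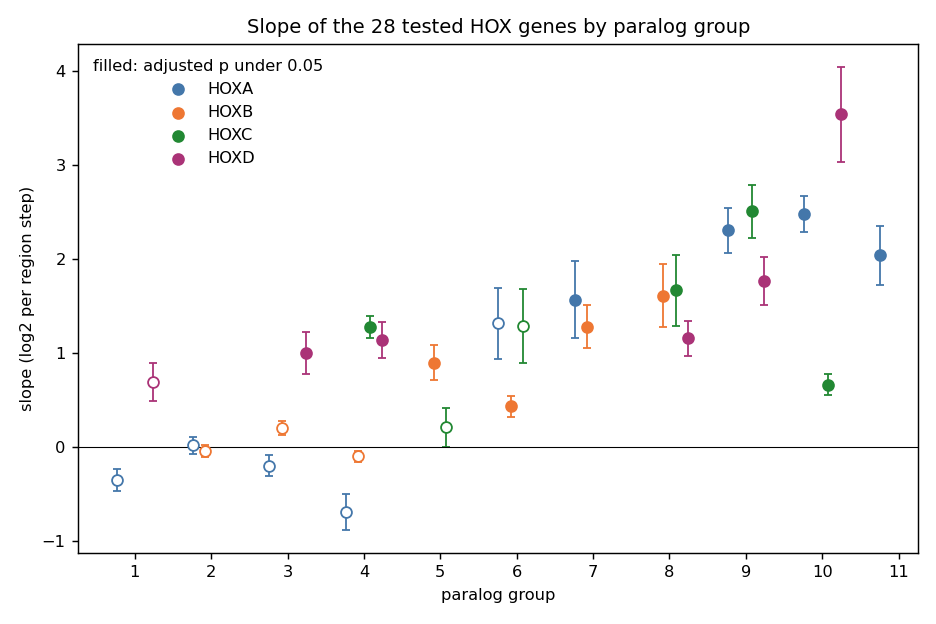
Slope (log2 per region step, y axis, with bars of 1 SE) of the 28 tested HOX genes by paralog group (x axis), coloured by cluster and filled where called. All 15 genes of groups 6 to 13 have positive slopes, and genes of groups 1 to 5 lie on both sides of 0.

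The HOX genes differed in where along the vessel their levels stepped up. HOXA7 lay at 0.689, 0.123, 0.605 and 0.483 CPM in the ascending libraries, 36.4, 23, 20.6 and 5.65 in the descending, 44.3, 48, 34.9 and 33.3 in the suprarenal and 92, 30.4, 31.3 and 26.7 in the infrarenal. It was low in the ascending libraries and high in the other 12, its deviation from a line was called (adjusted p = 0.0423), and the slope (1.56 per step (SE 0.41, adjusted p = 0.0439)) lost its call in 11 of the 16 fits without 1 library. HOXC8 had 3 counts in the ascending aorta and lay at 0 to 0.121 CPM in the ascending libraries, 0.222 to 3.6 in the descending, 0.709 to 9.71 in the suprarenal and 5.32 to 8.19 in the infrarenal, a slope of 1.66 per step (SE 0.38, adjusted p = 0.0189). HOXB6, HOXB7 and HOXB8 were one-step genes of the first step too, with slopes of 0.43, 1.28 and 1.61. The call of HOXB6 was lost in 8 of the 16 fits without 1 library and with library totals alone. HOXB8 had 0 counts in all 4 ascending libraries and was at least 35.5-fold higher in the infrarenal segment, against a floor of 3 counts over the group.

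Genes of groups 9 to 11 had their highest mean levels in the infrarenal segment, and so did all tested genes of groups 6 to 8. HOXA9 lay at 0.0627, 0.0617, 0.0605 and 0.362 CPM in the ascending libraries, 2.5, 5.06, 4.31 and 2.16 in the descending, 5.57, 25.8, 9.01 and 3.78 in the suprarenal and 51.3, 47.5, 44.5 and 34.5 in the infrarenal. HOXD9 lay at 0.627, 0.185, 0.908 and 2.11 CPM in the ascending libraries, 1.83, 1.02, 0.788 and 0.222 in the descending, 0.99, 3.68, 12.5 and 1.95 in the suprarenal and 34.3, 35.3, 39.3 and 16.9 in the infrarenal. The ascending and descending libraries of HOXD9 overlapped, and the differences at the later steps were 2.30 and 2.72 on the log2 scale (1.76, adjusted p = 0.000833 for the slope). HOXD10 lay at 6.86, 14.7, 16.1 and 2.55 CPM in the infrarenal libraries and at 0.57 CPM or less in the other 12, with the largest slope of the family (3.54 per step (SE 0.50, adjusted p = 0.000687)). HOXA11 was at 0.792 to 7.01 CPM in the infrarenal and at 0.19 CPM or less in the ascending and descending libraries (2.04 per step (SE 0.31, adjusted p = 0.00113)). HOXC10 had a lower slope than its neighbours (0.66 per step (SE 0.11, adjusted p = 0.00249)), in nearly equal steps of 0.57, 0.67 and 0.73. HOXB6, HOXB7, HOXB8, HOXD8, HOXD9, HOXA11 and HOXC10 were named after their values were seen.

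Called genes of the low groups were HOXC4 (1.27 per step (SE 0.12, adjusted p = 2.01e-05)), HOXD4, HOXB5 and HOXD3. HOXC4 lay at 2.57, 1.97, 1.09 and 1.81 CPM in the ascending libraries, 11.2, 7.47, 4.85 and 4.32 in the descending, 14.4, 18.8, 8.25 and 9.21 in the suprarenal and 27, 38.4, 29.6 and 26.8 in the infrarenal. Its ascending and infrarenal libraries were separated from their neighbours. HOXD4 had a slope of 1.14 per step (SE 0.19, adjusted p = 0.00245), HOXB5 of 0.90, adjusted p = 0.0117 and HOXD3 of 0.99, adjusted p = 0.0181, and in each of these ascending replicate 4 was the highest library of its segment. The call of HOXD3 was lost in 3 of the 16 fits without 1 library. HOX genes overlap one another and have antisense partners, and the sources used here do not state that counting used the strand, so reads of neighbours cannot be told apart.

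NOTCH3, a receptor of the Notch pathway that arterial smooth muscle cells and pericytes express, was stepwise. In Notch signalling, ligands of the Jagged and Delta families on 1 cell activate receptors on the next, whose cleaved inner part drives genes of the HES and HEY families. NOTCH3 lay at 71.2, 45.1, 47.8 and 61.3 CPM in the ascending libraries, 236, 108, 94.2 and 128 in the descending, 256, 248, 177 and 182 in the suprarenal and 494, 429, 402 and 505 in the infrarenal. Ascending and infrarenal libraries were separated from their neighbours, the descending and suprarenal libraries overlapped, and all 4 infrarenal libraries lay within 402 to 505 CPM. The slope was 0.96 per step (SE 0.09, adjusted p = 1.65e-05), with neighbouring differences of 1.33, 0.61 and 1.09 on the log2 scale. NOTCH3 had summed counts, scaled to library size, that were 8.13-fold higher in the infrarenal than in the ascending segment. It was called in each of the 27 alternative fits, among them the fits without the infrarenal and without the ascending segment.

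The ligand JAG1 was called higher too, at 92, 69.9, 97.5 and 96.9 CPM in the ascending libraries, 169, 107, 117 and 76.2 in the descending, 159, 152, 181 and 113 in the suprarenal and 274, 272, 339 and 298 in the infrarenal. All infrarenal libraries were above the other 12 and the first 3 segments overlapped. The slope of JAG1 was 0.56 per step (SE 0.07, adjusted p = 0.000189), with 56% of the change at the last step. HES4, a transcription factor of the HES family, had a slope of 0.92 per step (SE 0.16, adjusted p = 0.00258). It lay at 14.6, 16.2, 17.5 and 17.1 CPM in the ascending and 215, 84.6, 72.5 and 58.9 CPM in the infrarenal libraries, with infrarenal replicate 1 far above the other 3. Of 28 tested Notch genes these 3 were called higher and 0 lower (10.7%, median slope 0.14). Without the 3 libraries that stood apart NOTCH1 (0.56, adjusted p = 0.00403) and ADAM10 (0.27, adjusted p = 0.037) were called higher too. With all libraries neither was called (adjusted p = 0.426 and 0.756). Ascending replicate 4 and suprarenal replicate 3 had the highest Notch scores of their segments. Infrarenal replicate 1 had the lowest of its own, and nothing is read from the added calls.

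Among 11 tested pericyte and mural markers 3 were called higher, against 1.42% of all genes, and all 11 slopes were positive (median 0.30). Without the 3 libraries that stood apart 5 were called higher, against 4.77% of all genes. The summed level of these markers had segment medians of 3302, 6055, 7103 and 6269 CPM from ascending to infrarenal, so it was not highest in the infrarenal segment. Called with all libraries were NOTCH3, PDGFRB, the receptor of platelet-derived growth factor on mural cells, and MCAM, an adhesion molecule. PDGFRB lay at 201, 161, 187 and 167 CPM in the ascending libraries, 258, 240.2, 209.7 and 212 in the descending, 265, 273, 234 and 247 in the suprarenal and 317, 370.1, 361 and 360.0 in the infrarenal. All infrarenal libraries were above the other 12, with a slope of 0.31 per step (SE 0.04, adjusted p = 0.000206) and neighbouring differences of 0.36, 0.15 and 0.47. MCAM lay at 596 to 805 CPM in the ascending libraries, 787 to 877 in the descending, 586 to 1715 in the suprarenal and 1565 to 2028 in the infrarenal, a slope of 0.47 per step (SE 0.07, adjusted p = 0.00147). In whole tissue a change in the number of cells of a type and a change in RNA per cell cannot be told apart.

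Elastic fibres consist of a core of cross-linked tropoelastin on a scaffold of fibrillin microfibrils. ELN, which encodes tropoelastin, was not called for slope (-0.37 per step (SE 0.19, adjusted p = 0.442)). It lay at 225, 521, 406 and 118 CPM in the ascending libraries, 349, 635, 423 and 212 in the descending, 297, 388, 168 and 189 in the suprarenal and 33.4, 246, 221 and 135 in the infrarenal. Libraries of every segment overlapped, infrarenal replicate 1 was the lowest, and the first step ran against the slope with neighbouring differences of 0.35, -0.64 and -0.71. FBN1, which encodes fibrillin-1, was not called either (-0.12 per step (SE 0.10, adjusted p = 0.734)), at 315 to 554 CPM in the ascending libraries, 596 to 816 in the descending, 446 to 701 in the suprarenal and 265 to 459 in the infrarenal. It was highest in the descending libraries, with neighbouring differences of 0.55, -0.26 and -0.58, and its slope had the opposite sign (0.14) without the infrarenal segment.

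Of 27 tested elastic fibre genes 0 were called higher and 3 lower (11.1%), and 21 had negative slopes (median -0.08). EMILIN2, an elastin-associated glycoprotein, lay at 172, 149.8, 236 and 113 CPM in the ascending libraries, 176, 152, 216 and 151 in the descending, 125, 103, 120.2 and 129 in the suprarenal and 68.9, 74.8, 86.6 and 70.7 in the infrarenal. The ascending and descending libraries overlapped and all infrarenal libraries were below the other 12, with a slope of -0.40 per step (SE 0.07, adjusted p = 0.00461). The microfibril genes MFAP5 (-0.74, adjusted p = 0.041) and MFAP2 (-0.36, adjusted p = 0.0479) lost their calls in 9 and 12 of the 16 fits without 1 library. Without the 3 libraries that stood apart 8 of the 27 were called, all lower, among them FBLN5 (-0.32, adjusted p = 0.0138) and LTBP4 (-0.26, adjusted p = 0.00814).

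Fibrillar and associated collagens had 2 of 23 genes called higher and 2 lower (17.4%, median slope 0.05), and 7 higher and 1 lower without the 3 libraries that stood apart. COL8A1, a short-chain collagen of the vessel wall, lay at 27.1, 18.5, 42.7 and 76.5 CPM in the ascending libraries, 42.1, 64.9, 63.3 and 50.4 in the descending, 97.2, 248, 122 and 50.4 in the suprarenal and 707, 719.9, 488 and 498 in the infrarenal. The infrarenal libraries were above the other 12, and the slope was 1.29 per step (SE 0.15, adjusted p = 0.000141) with 57.4% of the change at the last step. COL1A1, the main chain of type I collagen, was 583 to 924 CPM in the ascending and 1528 to 2465 CPM in the descending libraries and overlapped from there on (0.62 per step (SE 0.12, adjusted p = 0.00645)). COL21A1 fell from 86.6 to 115 to 6.9 to 26.5 CPM (-0.75 per step (SE 0.12, adjusted p = 0.0022)), and COL9A2 (-0.76, adjusted p = 0.0495) lost its call in 13 of the 16 fits without 1 library. The slope of COL9A2 was -0.44 without ascending replicate 4.

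Of 23 basement membrane genes COL4A3 and COL4A4 were called lower and LAMA5 higher, and without the 3 libraries 1 was called in each direction. COL4A3, a chain of the type IV collagen network, lay at 90.4, 64.8, 94.4 and 114 CPM in the ascending libraries, 63.1, 84.7, 82.8 and 86.5 in the descending, 52.9, 24.4, 27.2 and 71.3 in the suprarenal and 10.6, 9.93, 8.58 and 14.4 in the infrarenal. Its summed counts, scaled to library size, were 8.28-fold lower in the infrarenal than in the ascending segment, and its slope was -0.98 per step (SE 0.15, adjusted p = 0.00123). COL4A4 shares a promoter region with COL4A3 and had a slope of -0.68 (adjusted p = 0.0468, lost in 11 of the 16 fits). LAMA5, a laminin chain, was 185 to 214 CPM in the ascending and 251 to 385 CPM in the infrarenal libraries (0.25 per step (SE 0.05, adjusted p = 0.0104)). The sulfatase SULF2, which edits heparan sulfate, was the only gene of 28 proteoglycan genes called with edgeR (-0.63 per step (SE 0.12, adjusted p = 0.00758)), while DESeq2 and limma voom each called 2 and edgeR without the 3 libraries called 3 higher and 4 lower.

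Of 33 contractile genes of smooth muscle 0 were called. With 3.3% of all genes tested called, nothing is read from that count. Of 42 ion channel genes 11 were called, 7 higher and 4 lower (26.2%), and 10 higher and 8 lower without the 3 libraries. The median slopes were 0.04 and 0.06. In the contractile list 8 genes had an unadjusted p under 0.05 with edgeR, and DESeq2 called 1 and limma voom 0. It had 2 genes called higher and 2 lower without the 3 libraries that stood apart, a fit that called 9.35% of all genes. P2RX1, a cation channel opened by ATP, lay at 2, 3.33, 0.908 and 4.22 CPM in the ascending libraries, 8.8, 5.96, 1.58 and 1.77 in the descending, 9.46, 111, 20.3 and 1.48 in the suprarenal and 230.2, 246, 164 and 121 in the infrarenal. The infrarenal libraries were above the other 12, suprarenal replicate 2 was near their level, and the slope was 2.15 per step (SE 0.30, adjusted p = 0.000504). KCNB2, a voltage-gated potassium channel, had 0 counts in the ascending aorta and 1.47, 3.97, 2.69 and 1.36 CPM in the infrarenal libraries, at least 52.2-fold higher against a floor of 3 counts over the group (2.97 per step (SE 0.38, adjusted p = 0.000209)). CACNA1H, a T-type calcium channel, was 7.9 to 16.8 CPM in the ascending and 52.5 to 106 CPM in the infrarenal libraries (0.92 per step (SE 0.16, adjusted p = 0.00266)).

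Receptors for vasoactive agents had 3 called higher and 2 lower of 42 (11.9%), and 9 higher and 4 lower without the 3 libraries. EDNRA, the endothelin receptor of smooth muscle, was 8.76 to 16.4 CPM in the ascending libraries, 10.9 to 18.8 in the descending, 12 to 29.3 in the suprarenal and 20.6 to 39.9 in the infrarenal, a stepwise slope of 0.45 per step (SE 0.09, adjusted p = 0.00665). CHRM2, a muscarinic acetylcholine receptor, lay at 15.6 to 65.4 CPM in the ascending, 15.6 to 61 in the descending, 4.37 to 16.5 in the suprarenal and 0.386 to 3.67 CPM in the infrarenal libraries. Its ascending and descending libraries overlapped and its infrarenal libraries were below all others, with a slope of -1.31 per step (SE 0.26, adjusted p = 0.00695). GUCY1B1, the partner subunit of GUCY1A1, was called as well (0.28 per step (SE 0.06, adjusted p = 0.0205)), with the largest difference at the middle step, and lost its call in 4 of the 16 fits.

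Factors of the heart field and neural crest had 2 of 26 genes called higher and 8 lower (38.5%, median slope -0.19), and 2 higher and 9 lower without the 3 libraries. HAND2, a partner of HAND1 in heart development, lay at 100.1, 107, 98.9 and 85.5 CPM in the ascending libraries, 22.5, 48.2, 43.6 and 48.8 in the descending, 28.5, 44.7, 25.4 and 62.2 in the suprarenal and 23.4, 27.3, 21.1 and 24.2 in the infrarenal. The ascending libraries were above all others, the descending and suprarenal overlapped, and the slope was -0.62 per step (SE 0.09, adjusted p = 0.00103). GATA5 lay at 26.5 to 70.6 CPM in the ascending libraries, 6.41 to 16.4 in the descending, 7.86 to 23 in the suprarenal and 3.97 to 8.19 in the infrarenal (-0.92 per step (SE 0.16, adjusted p = 0.00258)) and TFAP2A, a factor of the neural crest, at 2.65 to 8.41 CPM in the ascending and 0.231 to 1.18 CPM in the infrarenal libraries (-0.99 per step (SE 0.19, adjusted p = 0.00532)). GATA4 lay at 2.51, 0.679, 1.51 and 15.5 CPM in the ascending libraries and at 0.70 CPM or less in the other 12. Its slope was -2.25 per step (SE 0.43, adjusted p = 0.00586) and -1.46 (adjusted p = 0.0305) without ascending replicate 4, which was also the library with the highest mesothelial score. The 2 higher genes, TBX18 (0.38) and TBX2 (0.55), and the lower TBX20 (-1.12), OSR1 (-0.82) and SOX9 (-1.30) were named after their values were seen.

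Genes of neurons and synapses were called lower in 8 and higher in 1 of 50 (18%, median slope -0.11). With the 3 libraries that stood apart left out the count was 10 lower and 7 higher with a median of -0.03. TENM3, a teneurin of cell contacts, was the higher one, at 4.2, 4.32, 4.6 and 7.36 CPM in the ascending libraries, 20.5, 22.3, 11.7 and 20.6 in the descending, 19.8, 33.5, 14.5 and 22.3 in the suprarenal and 52.1, 57.7, 38.5 and 42.1 in the infrarenal. The ascending libraries were below the other 12 and the slope was 0.96 per step (SE 0.12, adjusted p = 0.000155). GRIA3, a glutamate receptor subunit, fell in steps from 20.5 to 47.1 over 23.2 to 27.4 and 9.37 to 19.98 to 6.02 to 8.37 CPM (-0.76 per step (SE 0.09, adjusted p = 0.000167)). NLGN2 (-0.29, adjusted p = 0.00184), with its change at the first step, and NLGN4X (-0.59, adjusted p = 0.00258), with its change at the last, encode neuroligins. Of 17 tested Schwann cell and nerve markers GFAP was called lower (-0.87, adjusted p = 0.00644, 1 higher and 2 lower without the 3 libraries), 14 had negative slopes (median -0.24) and their summed level was 656 to 930.4 CPM in the ascending and 563 to 686 CPM in the infrarenal libraries. The part of nerve in these slopes was not tested.

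In the TGF-beta and BMP list 2 of 40 were higher and 2 lower (10%), namely GREM1 and THBS1 (0.52, adjusted p = 0.0359) and BMPR1B and SMAD3 (-0.21, adjusted p = 0.0345). The WNT list also had 2 of 40 higher, TCF7L2 (0.29, adjusted p = 0.0176) and LRP5 (0.25, adjusted p = 0.0262), and 2 lower, ROR2 (-0.45, adjusted p = 0.018) and RSPO2 (-1.64, adjusted p = 0.0212). THBS1, which encodes thrombospondin 1, lost its call in 8, SMAD3, a transducer of TGF-beta signals, in 6, LRP5 in 5, RSPO2 in 4, TCF7L2 and ROR2 each in 2 of the 16 fits without 1 library. Both lists, fitted without the 3 libraries that stood apart, had 4 genes called in each direction. In the retinoic acid list the receptor RARB was the only gene of 18 called with edgeR (-0.41 per step (SE 0.09, adjusted p = 0.0139)), with 75% of its change at the last step. DESeq2 called 3 genes of the list, and edgeR without the 3 libraries called 4 higher and 1 lower. Of 47 axon guidance genes EPHB6 (-0.57, adjusted p = 0.00121), EFNB3 (-0.90, adjusted p = 0.00302) and SEMA3C (-0.65, adjusted p = 0.025) were called lower and SLIT3, a secreted ligand of ROBO receptors, higher (0.47, adjusted p = 0.0145). SEMA3C lost its call in 3 and SLIT3 in 1 of the 16 fits without 1 library, and the same held for RARB in 1. DESeq2 called 11 axon guidance genes, and edgeR without the 3 libraries called 7 higher and 6 lower. SLIT3 lay at 73.4 to 106 CPM in the ascending and 204 to 284 CPM in the descending libraries.

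Endothelial markers varied widely within segments. Of 24 tested, 23 had positive slopes (median 0.30) and ESAM alone was called (0.64 per step (SE 0.16, adjusted p = 0.0301)), at 45, 50.7, 76.2 and 203 CPM in the ascending libraries, 58.6, 58.4, 76.5 and 70.4 in the descending, 60.5, 212, 261 and 81.6 in the suprarenal and 362, 286, 329 and 319.6 in the infrarenal. The call of ESAM was lost in 6 of the 16 fits without 1 library. The summed endothelial level ran from 734 to 3187 CPM in the ascending, 1172 to 1511 in the descending, 813 to 5295 in the suprarenal and 1325 to 4079 CPM in the infrarenal libraries. Without the 3 libraries that stood apart 17 of the 24 were called, all higher, against 4.77% of all genes. Ascending replicate 4 and suprarenal replicate 3 had the highest endothelial scores of their segments and infrarenal replicate 1 the lowest of its own. The effects of these 3 libraries on the 17 were not told apart, and nothing is read from that count. The part of endothelial cells in the slopes of other genes was not tested.

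The lists of fat, blood and skeletal muscle markers were short. With 3.3% of all genes tested called, nothing is read from counts of 0 or 1 in them. White adipocyte markers had 0 of 15 called and a median slope of 0.43. Their summed level was 374 to 1758 CPM in the ascending libraries, 887 to 7055 in the descending, 786 to 5402 in the suprarenal and 806 to 5755 in the infrarenal. Its segment median was highest in the descending libraries, at 2528 CPM. None of 10 thermogenic adipocyte, 17 macrophage, 11 lymphocyte and 5 mast cell markers was called with edgeR. At an unadjusted p under 0.05 there were 2 thermogenic and 0 white adipocyte, macrophage, lymphocyte and mast cell markers, and DESeq2 and limma voom each called 1 thermogenic marker and 0 of the others. Of 10 skeletal muscle markers ACTN3 was called lower (-0.48, adjusted p = 0.0135, lost in 1 of the 16 fits), and of 16 fibroblast markers MFAP5. Fitted without the 3 libraries that stood apart, edgeR called 2 macrophage and 2 lymphocyte markers higher, 1 thermogenic marker lower, 1 skeletal muscle marker higher and 2 lower, 1 fibroblast marker in each direction, and 0 white adipocyte and mast cell markers. The replicate block also called 1 thermogenic marker lower. The 48 genes of oxidative phosphorylation and 26 immediate-early and stress genes had no called member by any of the 3 tools (1 and 2 at an unadjusted p under 0.05), with median slopes of 0.08 and -0.06, and 3 and 1 genes called lower without the 3 libraries. Of 27 genes of heritable thoracic aortic disease COL1A1 was called higher and SMAD3 and MFAP5 lower, and 3 higher and 4 lower without the 3 libraries.

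**Figure D5:**
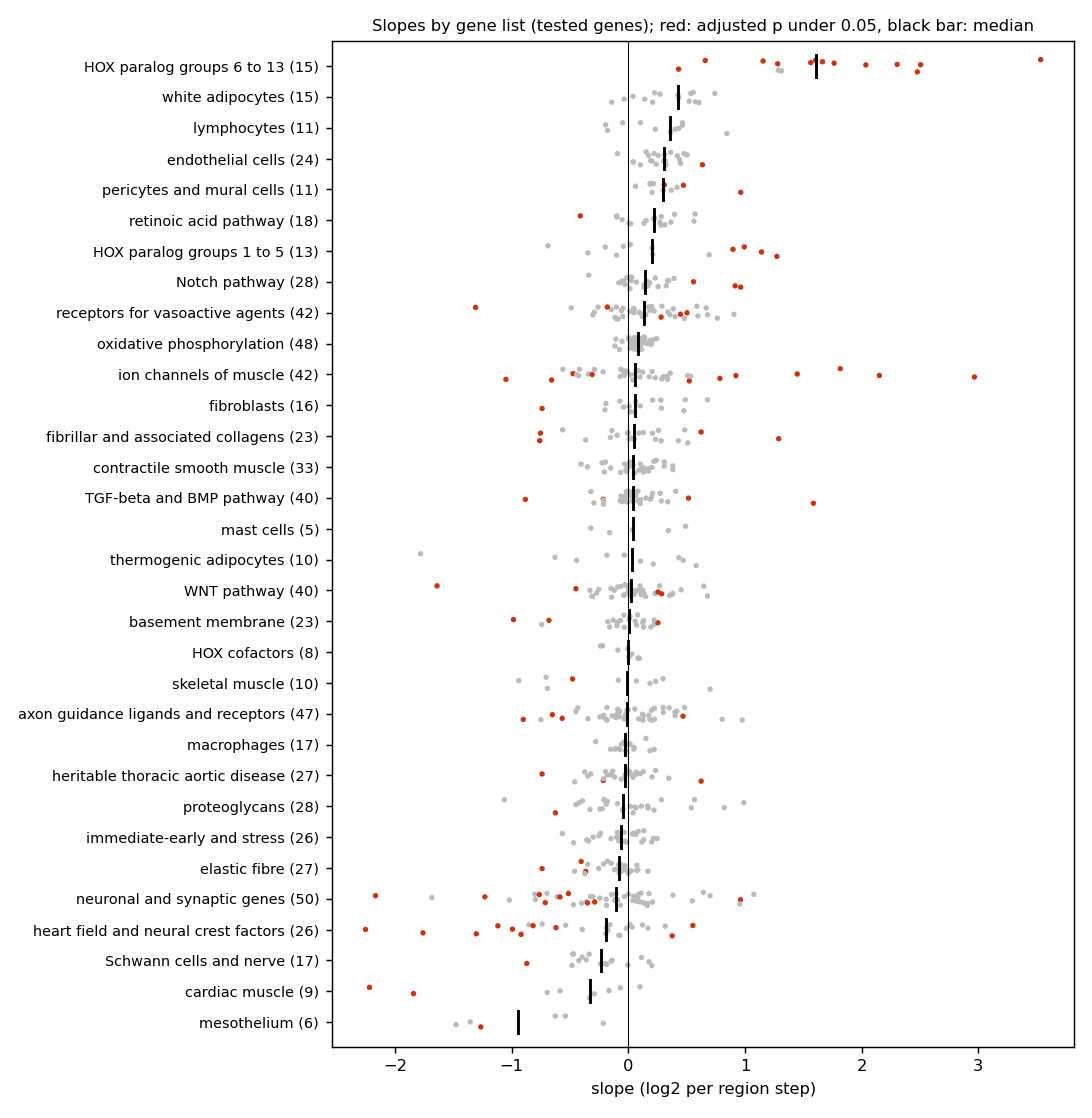
Slope of each tested gene (log2 per region step, x axis) by gene list (y axis, number of tested genes in brackets), with called genes in red and a black bar at the median of the list. The HOX genes of paralog groups 6 to 13 lie farthest to the right (median 1.61), and the mesothelial markers have the lowest median (-0.95).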

How the data were processed

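RNA sequencing of 16 aorta libraries was analysed, 4 from each of 4 segments. Per the labels' protocols, a Qiagen RNeasy kit for fibrous tissue gave the RNA and a NEBNext Ultra kit the libraries. The values deposited by the authors are raw counts per gene identifier, made with fastp, HISAT2 2.0.5 and featureCounts 1.5.0-p3 per the submitters' processing notes. Genome build, annotation and strand setting: not given in the sources used here. All 16 library files held the same counts as the series table. Of its 32846 rows, 24609 (74.9%, with 97.2% of the counts) were matched to symbols of the RefSeq annotation, used for names only. No 2 libraries of a segment agreed within sampling noise (lowest chi-square per degree of freedom 29.6).

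Genes were kept with filterByExpr (minimum count 10, minimum total 15), which left 15926 genes and 99.9% of the counts, and normalized with TMM. In R 4.3.3, edgeR 4.0.16 fitted an intercept and the segment code by quasi-likelihood. Dispersion was 0.151 (common value), the residual degrees of freedom were 14 and the prior ones 3.33. A second fit with a mean for each segment gave the differences between neighbouring segments and the test of the quadratic and cubic terms. CPM was computed from these counts with the TMM factors. The fits were tested on simulated data.

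The members, the gene lists and the rules were chosen with earlier results of these data known. Genes were named by a rule. It took the 10 largest slopes in each direction among stepwise genes, the 3 largest in each direction for each step among one-step genes, genes called for deviation alone, and genes in region order without overlap, each with a symbol and a mean log2 CPM of at least 1. It added NOTCH3, ELN and FBN1 and the 4 members of smallest p in every list. The lists were general knowledge of the tissue: HOX paralog groups 1 to 5, HOX paralog groups 6 to 13, HOX cofactors, heart field and neural crest factors, retinoic acid pathway, Notch pathway, TGF-beta and BMP pathway, WNT pathway, axon guidance ligands and receptors, elastic fibre, fibrillar and associated collagens, proteoglycans, basement membrane, contractile smooth muscle, ion channels of muscle, receptors for vasoactive agents, neuronal and synaptic genes, heritable thoracic aortic disease, endothelial cells, fibroblasts, pericytes and mural cells, white adipocytes, thermogenic adipocytes, cardiac muscle, skeletal muscle, macrophages, lymphocytes, mast cells, Schwann cells and nerve, mesothelium, oxidative phosphorylation, immediate-early and stress. Scores of a list average the centred log2 CPM (prior count 2) of its members. Ratios at low counts carry exact 95% intervals, and these and the floors of 3 counts cover counting error only, since reads were not marked by molecule.

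The alternatives were the replicate number as a block, a linear contrast of segment means, RLE scaling, scaling by totals only, a filter of 1 count, a filter of CPM 1 in 4 libraries or more, DESeq2 1.42.0, limma 3.58.1 with voom, either end segment left out, each library left out in turn, shares of 25% and 80% and the lowest deviance for the shapes. The fit that leaves out 3 libraries (infrarenal 1, ascending 4, suprarenal 3) was chosen after seeing the data.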

Additional observations from a re-analysis of the deposited data

Results flagged for a closer look

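For each of 94 genes named or followed in the text, the highest or lowest library of each segment was set against the gap to its nearest neighbour. A gap that took most of the range of the 4 libraries was marked in 39 of 376 groups (10.4%). The share that chance would mark was not determined. HOXC9 in ascending replicate 4, KCNB2 in descending replicate 1 and MYH6 in infrarenal replicate 3 were marked on 1 count against 0. Ascending replicate 4 accounts for 10 of the 39.

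In ascending replicate 1 it was MYL2 at 99.4 CPM (others 0.123 to 0.605) and MYH6 at 5.83 CPM (others 0.241 to 1.17). Ascending replicate 2 stood apart for HOXA10 at 0.185 CPM (others 0.0604 to 0.0627). In ascending replicate 3 it was SMAD3 at 104 CPM (others 61.6 to 68.0). In ascending replicate 4 these were HOXC9 at 0.0604 CPM (others 0), HOXA9 at 0.362 CPM (others 0.0605 to 0.0627), C3 at 369 CPM (others 15.8 to 19.6), ATP1B1 at 65.8 CPM (others 117 to 121) and PHKG1 at 3.38 CPM (others 0.864 to 1.00). The same library stood apart for HOXD4 at 11 CPM (others 1.25 to 1.51), GATA4 at 15.5 CPM (others 0.679 to 2.51), SEMA3C at 87.6 CPM (others 221 to 235), TENM3 at 7.36 CPM (others 4.20 to 4.60) and HOXD8 at 6.16 CPM (others 0.864 to 1.25). Descending replicate 1 stood apart for HPGD at 3.60 CPM (others 0.720 to 1.08), COL4A3 at 63.1 CPM (others 82.8 to 86.5), KCNB2 at 0.0611 CPM (others 0) and GUCY1A1 at 49.8 CPM (others 28.8 to 30.7). In descending replicate 3 it was HAND1 at 0.425 CPM (others 0 to 0.0602), SEMA3C at 354 CPM (others 248 to 260.1), COL4A4 at 37.3 CPM (others 70.9 to 72.9) and MYH6 at 1.09 CPM (others 0.277 to 0.305). Descending replicate 4 stood apart for C3 at 53.3 CPM (others 20.8 to 26.2). In infrarenal replicate 1 it was HOXA7 at 92.0 CPM (others 26.7 to 31.3), EHD1 at 327 CPM (others 185 to 207) and HES4 at 215 CPM (others 58.9 to 84.6). Infrarenal replicate 2 stood apart for LRRC10B at 2.35 CPM (others 7.47 to 8.09). In infrarenal replicate 3 it was MYH6 at 0.0655 CPM (others 0). Infrarenal replicate 4 stood apart for HOXA10 at 24.8 CPM (others 40.0 to 42.5), SLIT3 at 456 CPM (others 249.6 to 273), SULF2 at 65.5 CPM (others 28.6 to 33.5) and NLGN4X at 3.90 CPM (others 2.82 to 2.95). In suprarenal replicate 1 it was FBP2 at 5.01 CPM (others 0.287 to 0.768). Suprarenal replicate 2 stood apart for NKAIN2 at 27.5 CPM (others 1.89 to 5.57) and KCNB2 at 1.29 CPM (others 0 to 0.186). In suprarenal replicate 3 it was HOXD10 at 0.571 CPM (others 0), GATA4 at 0.698 CPM (others 0 to 0.118) and GUCY1A1 at 75.6 CPM (others 44.3 to 46.5). Suprarenal replicate 4 stood apart for SMAD3 at 67.1 CPM (others 54.1 to 55.7).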

How the results depend on the processing

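The slope test called 951 genes with DESeq2, 227 without the ascending segment, 20 without the infrarenal segment and 1489 without the 3 libraries that stood apart, against 525, and 304 to 813 without any single library. Genes called for deviation numbered 10 with the replicate block, 85 with DESeq2, 1 with limma voom and 31 without the 3 libraries, against 5, and 2 to 6 without any single library. Stepwise genes numbered 49 with shares of 25% and 80%, 355 by lowest deviance and 365 without the 3 libraries, against 191, and 129 to 277 without any single library. One-step genes numbered 96 with the replicate block, 12 with shares of 25% and 80%, 170 by lowest deviance and 232 without the 3 libraries, against 62, and 25 to 114 without any single library. The cause was not tested. Counts of calls under the linear contrast, RLE, library totals and both filters lay within 1.5 times the counts reported. Shapes were not computed for the linear contrast, DESeq2, voom or the fits without a segment, and deviation not for the linear contrast or the fits without a segment.

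Of the genes followed singly, SNX31 had a slope of -0.015 with limma voom, of -2.25 without the ascending segment and of -0.41 to 0.78 in the fits without 1 library, 5 of them below 0, against 0.32. ADGRL3 had -0.27 and HAND1 0.74 without the ascending segment, against 0.64 and -1.76, and FBN1 0.14 without the infrarenal segment, against -0.12. In 2215 comparisons of a gene and a setting the direction and the side of the threshold were kept, in 308 the call was lost with the direction kept, in 10 the direction turned and in 1 a call was gained. Of the 90 called genes followed singly, 89 kept their call with the replicate block, all but MYL2. With limma voom 80 kept it, and 10 lost it: SLC22A2, C3, HPGD, MYL2, HAND1, PCNX2, THBS1, RSPO2, MFAP5 and COL9A2. With DESeq2 88 kept it, all but C3 and MYL2.

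The replicate numbers did not meet the rule for pairing. Of 24 pairs of libraries with the same number, 19 had a correlation of deviations over 0.1, with a lowest of -0.173 and a median of 0.344, against a median of -0.0947 for other numbers. In 15 of 16 libraries the closest number was their own, a hint from the data and not the design. The replicate block gave 778 calls for slope and 263 stepwise genes. Genes near 1 count per library carry wide counting error, and a gene that missed the threshold may still change.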

Other observations

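Called genes of the ion channel and neuronal lists that the rule did not name were described after their values were seen. Among potassium channels KCNT2 (1.45 per step (SE 0.25, adjusted p = 0.0028)), KCNA2 (0.79, adjusted p = 0.00645) and KCNQ5 (0.52, adjusted p = 0.0132) were called higher, and KCNK6 (-0.31, adjusted p = 0.0175) lower towards the infrarenal end. RYR3, a calcium release channel of the endoplasmic reticulum, was called lower and was stepwise (-0.66 per step (SE 0.13, adjusted p = 0.00621)), with mean levels of 4.57 ± 1.3 CPM (SD, n = 4) in the ascending, 2.8 ± 1.18 in the descending, 1.8 ± 0.875 in the suprarenal and 1.16 ± 0.401 CPM in the infrarenal libraries. Of the neuronal list GRIK2, a kainate receptor subunit (-0.71, adjusted p = 0.013), NLGN3 (-0.35, adjusted p = 0.0303) and NPTXR (-0.51, adjusted p = 0.041) were called lower with a mixed shape, and CRMP1 (-1.23, adjusted p = 0.0216) lower with its change at 1 step. NPR2, the receptor of C-type natriuretic peptide, was called lower with a small slope (-0.18, adjusted p = 0.0326).

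Libraries of a segment differed in how often they held its most distal level of a stepwise gene, a count made after the values were seen. Ascending replicate 4 had the most distal level of its segment, highest for genes called higher and lowest for genes called lower, in 88 of 191 stepwise genes (46.1%). For descending replicate 1 the count was 86 (45%), for suprarenal replicate 2 it was 80 (41.9%) and for infrarenal replicate 1 it was 68 (35.6%). The lowest count was 24 (12.6%), in suprarenal replicate 4. Suprarenal replicate 2 was the highest library of its segment in 50 of the 90 stepwise genes called higher (55.6%) and the lowest in 30 of the 101 called lower (29.7%). In ascending replicate 4 the counts were 34 of 90 called higher (37.8%) and 54 of 101 called lower (53.5%). For each gene some library of a segment must hold the most distal level, and the genes were called from these same libraries. The share over all genes tested is not given here. Nothing is read from these counts about position along the vessel, and what set the libraries apart was not tested.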
